A study of Arabidopsis thaliana with 12 samples.

Results

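The set described here holds 39 Arabidopsis thaliana genes whose transcript levels differed with leaf age in opposite directions in gvs1-1 and in Col. They were chosen from the authors' deposited table, which gives 1 log2 value per locus and array for 21266 loci. Of these loci, 14759 reached a mean log2 value of at least 8 in at least 1 of the 4 groups of arrays. A gene was taken from them if its mean at DAE28 minus its mean at DAE14, called its age difference here, was 0.5 or more in one direction in gvs1-1 and 0.5 or more in the other direction in Col. In 31 genes the level was lower with age in gvs1-1 and higher with age in Col, and in 8 genes it was the reverse. The members make up 0.264% of the loci that reached the floor of 8 and 0.183% of all loci.

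The groups were gvs1-1 leaves at DAE28, gvs1-1 leaves at DAE14, Col leaves at DAE28 and Col leaves at DAE14, with 3 samples in each and 12 one-colour Agilent arrays in all. Col is the common laboratory ecotype and gvs1-1 the line set against it, for which the labels name no locus, allele type or number of clones. The labels leave DAE undefined. Samples were the third and the fourth leaves of soil-grown plants, 23 or 37 days old, taken 5 h into a light period of 16 h, and the title gives leaf senescence as the subject.

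Leaf senescence is the last stage of leaf development, during which chloroplasts are dismantled, macromolecules are broken down, and nitrogen, sugars and minerals are moved to growing organs. Cytokinin, a hormone that delays senescence, sugar levels and light all bear on when it starts. The genes of the set come from many functions, among them sugar and amino acid transport, cytokinin signalling, proteases of the metacaspase family, protection from light and oxidation, glycosylation and cell wall polysaccharides.

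Between 63.8% and 72.5% of the spots of an array were well above background, and no spot was saturated. The 4 mesophyll markers had a mean log2 value per array of 13.7 to 13.8 in gvs1-1 leaves at DAE28, 15.3 to 15.6 in gvs1-1 leaves at DAE14, 12.2 to 13.4 in Col leaves at DAE28 and 15.7 to 15.8 in Col leaves at DAE14. The seed marker CRA1, at 5.67 to 6.16 on the 12 arrays, lay below the floor of 8. In such whole-leaf samples fewer cells of a type and less RNA per cell cannot be told apart. Arrays were on 3 slides that did not balance the groups. Slide 3 held the 3 gvs1-1 DAE28 arrays and replicate 3 of gvs1-1 DAE14, slide 2 held replicates 1 and 2 of gvs1-1 DAE14 and replicates 2 and 3 of Col DAE28, and slide 1 held replicate 1 of Col DAE28 and the 3 Col DAE14 arrays. Slides 1 and 3 were scanned on one day and slide 2 on another. A gene that reads higher on slide 2 would, through this layout, be lower with age in gvs1-1 and higher with age in Col. The age differences on scan day 1 alone are therefore given beside the results. They compare 3 gvs1-1 DAE28 arrays with 1 gvs1-1 DAE14 array, and 1 Col DAE28 array with 3 Col DAE14 arrays.

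Among the 31 genes that were lower with age in gvs1-1 and higher in Col, the age difference had a median of -0.69 in gvs1-1, with a range of -1.63 to -0.50, and a median of 0.89 in Col, with a range of 0.51 to 2.78. Over all loci that reached the floor the medians were 0.11 in gvs1-1 and 0.10 in Col. In the 8 genes with the reverse pattern the medians were 0.70 in gvs1-1 and -0.71 in Col. These values chose the genes and carry no test. For the share of loci with an age difference of at least 0.5 among those that reached the floor, 22.2% were lower and 26.1% higher in gvs1-1, and 28.4% were lower and 31.4% higher in Col. Only SWEET2 and RR16 had an age difference of at least 1, a doubling or halving, in both genotypes. The plot of age differences in both genotypes shows the set at the edge of the cloud of all loci.

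**Figure D1:**
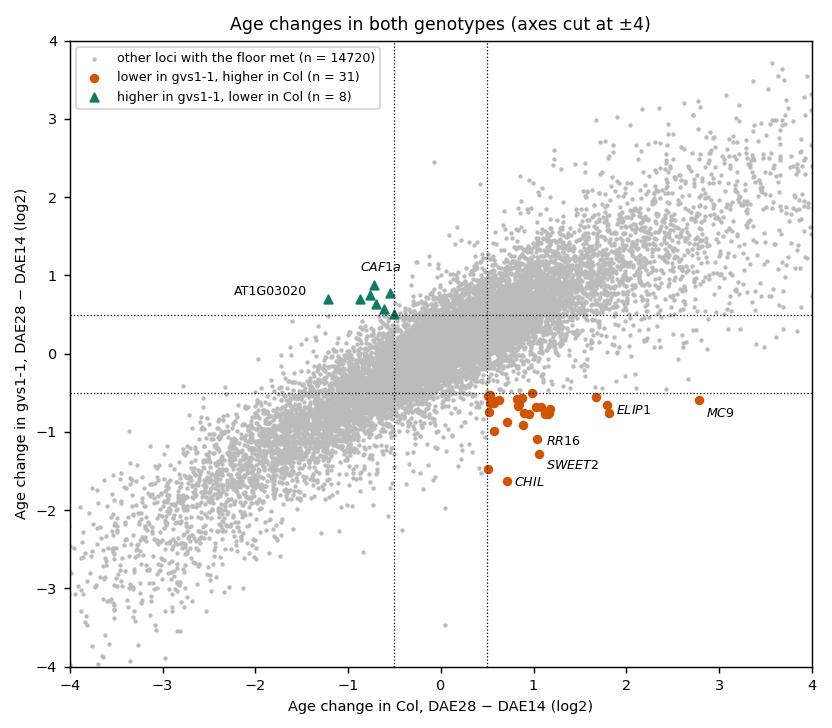
Age difference (DAE28 minus DAE14, log2) in gvs1-1 on the y axis against that in Col on the x axis for loci that reached the floor, in grey, with the 31 genes lower in gvs1-1 and higher in Col as circles and the 8 genes with the reverse pattern as triangles. Dotted lines mark the threshold of 0.5, the axes end at 4 on either side of 0, and MC9 (-0.60 in gvs1-1, 2.78 in Col) is the member farthest out along the Col axis.

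The members just inside the threshold were GATL10, with a smaller age difference of 0.51, AT3G50900 with 0.503 and HSC70-1 with 0.503. Just outside it were SNF4 with 0.497, AT5G35450 with 0.492 and AT5G24230 with 0.486. At the floor of 8, CHIL and ZAT11 had a highest group mean of 8.05 and ERF53 of 8.17, while AT1G25530 at 7.99, AT1G10585 at 7.68 and AT1G78260 at 7.57 had opposite age differences but stayed below the floor.

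The members varied more between replicates than most loci. The SD within groups, pooled over the 4 groups, had a median of 0.41 over the 39 members and of 0.16 over all loci that reached the floor. In the Col DAE28 group alone the median SD was 0.53 for the members and 0.18 for those loci. In 31 of the 39 genes the smaller of the age differences exceeded the gene's pooled SD. In 16 of the 39 genes the arrays of the stages did not overlap in either genotype, so that all DAE28 arrays lay on one side of all DAE14 arrays in gvs1-1 and on the other side in Col. Over all loci 1.11% showed such a pattern. By direction these were 12 of the 31 genes, against 0.461% of all loci, and 4 of the 8 genes, against 0.644%. The groups did not overlap in 27 members within gvs1-1, against 66.4% of all loci, and in 21 members within Col, against 72.3% of all loci. In 7 members the stages overlapped in both genotypes. The rule used these contrasts, so nothing is read from the shares.

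Transporters and a hormone signalling gene are given first. SWEET2, a sugar transporter of the vacuolar membrane, had log2 values of 8.33, 8.67 and 8.54 in gvs1-1 leaves at DAE28, against 9.88, 9.75 and 9.76 at DAE14. In Col leaves the values were 10.10, 10.76 and 11.81 at DAE28, against 9.87, 9.85 and 9.77 at DAE14. The DAE14 arrays of both genotypes lay within a narrow band, every gvs1-1 DAE28 array lay below it and every Col DAE28 array above it. The age difference was -1.28 in gvs1-1, a 2.44-fold lower level, and 1.06 in Col, a 2.09-fold higher level. On scan day 1 alone it was -1.25 in gvs1-1 and 0.27 in Col, so the Col part was smaller there.

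RR16, also called ARR16, is a type-A response regulator, one of the proteins that are induced by cytokinin and dampen its signal. It had values of 9.70, 8.90 and 8.53 in gvs1-1 leaves at DAE28, against 10.60, 9.79 and 10.02 at DAE14. Col leaves gave 10.67, 11.17 and 12.52 at DAE28, against 11.01, 9.87 and 10.37 at DAE14. The stages were apart in gvs1-1 but overlapped in Col, where replicate 1 at DAE14 was above replicate 1 at DAE28. The age differences of -1.10 in gvs1-1 and 1.04 in Col became -0.97 and 0.26 on scan day 1.

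UMAMIT10 belongs to a family of membrane transporters that includes amino acid exporters. Its values were 7.17, 6.53 and 6.51 in gvs1-1 leaves at DAE28 and 7.67, 7.31 and 7.28 at DAE14. They were 7.97, 8.56 and 8.70 in Col leaves at DAE28 and 7.45, 7.30 and 7.42 at DAE14. As for SWEET2, the DAE14 arrays of both genotypes shared one range, with Col DAE28 above it and gvs1-1 DAE28 below it. The age differences were -0.68 in gvs1-1 and 1.02 in Col, and -0.55 and 0.58 on scan day 1.

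Metacaspases are cysteine-dependent proteases that cut after basic residues, and some act in plant cell death. MC9 was measured at 7.82, 7.13 and 7.20 in gvs1-1 leaves at DAE28, against 7.94, 8.14 and 7.86 at DAE14. The Col values were 9.68, 10.39 and 11.34 at DAE28, against 7.58, 7.63 and 7.85 at DAE14. All Col DAE28 arrays stood well above the other groups, and the gvs1-1 stages were apart by a small margin. MC9 had the largest age difference of the set in Col, 2.78 or 6.88-fold, against -0.60 in gvs1-1, and the values on scan day 1 were 1.99 in Col and -0.48 in gvs1-1.

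MC3 is another metacaspase. Its values were 12.11, 11.91 and 11.93 in gvs1-1 leaves at DAE28, 12.49, 12.66 and 12.68 in gvs1-1 leaves at DAE14, 13.15, 12.65 and 13.59 in Col leaves at DAE28 and 12.39, 12.67 and 12.76 in Col leaves at DAE14. The age differences of -0.63 in gvs1-1 and 0.53 in Col were -0.69 and 0.55 on scan day 1, with the Col stages overlapping.

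Protection from oxidation and from light was represented by CSD1, the cytosolic copper and zinc superoxide dismutase, and ELIP1, a chlorophyll-binding protein made under light stress. CSD1 had values of 13.21, 11.73 and 11.74 in gvs1-1 leaves at DAE28, against 13.12, 13.46 and 12.86 at DAE14. Its Col values were 13.43, 13.32 and 12.85 at DAE28, against 12.34, 12.68 and 11.91 at DAE14. One gvs1-1 DAE28 array, replicate 1, read as high as the DAE14 arrays of that genotype, while the Col stages were apart. The age differences were -0.92 in gvs1-1 and 0.89 in Col over all arrays and -0.63 and 1.12 on scan day 1. Already at DAE14 CSD1 was 0.83 higher in gvs1-1 than in Col, with no overlap between their arrays.

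ELIP1 read 10.17, 9.94 and 8.82 in gvs1-1 leaves at DAE28, against 10.47, 10.32 and 10.10 at DAE14. It read 10.53, 12.73 and 13.00 in Col leaves at DAE28, against 10.11, 10.48 and 10.31 at DAE14. Replicates 2 and 3 of Col DAE28, both on slide 2, were far above replicate 1, which was barely above the DAE14 arrays. The age differences of -0.65 in gvs1-1 and 1.79 in Col were -0.46 and 0.23 on scan day 1. With scan day as a block the gvs1-1 value turned to 0.22, and without replicate 3 of gvs1-1 DAE28 it was -0.24.

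Enzymes that attach sugars to small molecules included UGT74E2, which glucosylates the auxin indole-3-butyric acid, and UGT78D2, which glucosylates flavonols and anthocyanins. UGT74E2 had values of 9.91, 9.82 and 9.29 in gvs1-1 leaves at DAE28, against 10.05, 11.23 and 10.01 at DAE14. In Col it had 10.52, 11.44 and 11.49 at DAE28, against 9.38, 8.89 and 9.75 at DAE14. The stages did not overlap in either genotype, and gvs1-1 was above Col at DAE14 and below it at DAE28. Its age differences were -0.76 in gvs1-1 and 1.81 in Col, and -0.34 and 1.18 on scan day 1.

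For UGT78D2 and CHIL, a chalcone isomerase-like protein that aids flavonoid synthesis, the Col DAE28 arrays were far apart. UGT78D2 read 10.24, 10.49 and 9.77 in gvs1-1 leaves at DAE28 and 11.03, 10.66 and 10.87 at DAE14, and 9.81, 11.86 and 13.34 in Col leaves at DAE28 against 10.76, 10.47 and 10.53 at DAE14. The Col DAE28 arrays ran from below the Col DAE14 arrays to far above them. On scan day 1 the Col age difference of 1.08 became -0.78, while that of gvs1-1 was -0.69 over all arrays and -0.70 there. With scan day as a block the gvs1-1 value turned to 0.23. CHIL read 5.63, 5.97 and 5.57 in gvs1-1 leaves at DAE28 and 7.72, 7.28 and 7.06 at DAE14, and 5.76, 7.91 and 10.48 in Col leaves at DAE28 against 7.42, 7.25 and 7.33 at DAE14. The Col age difference of 0.71 was -0.50 without replicate 3 of Col DAE28 and -1.58 on scan day 1. The gvs1-1 value was -1.33 on scan day 1, so CHIL was lower with age in both genotypes there. Its probe was well above background on 1 of 3 gvs1-1 DAE28 arrays and on 2 of 3 Col DAE28 arrays.

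**Figure D2:**
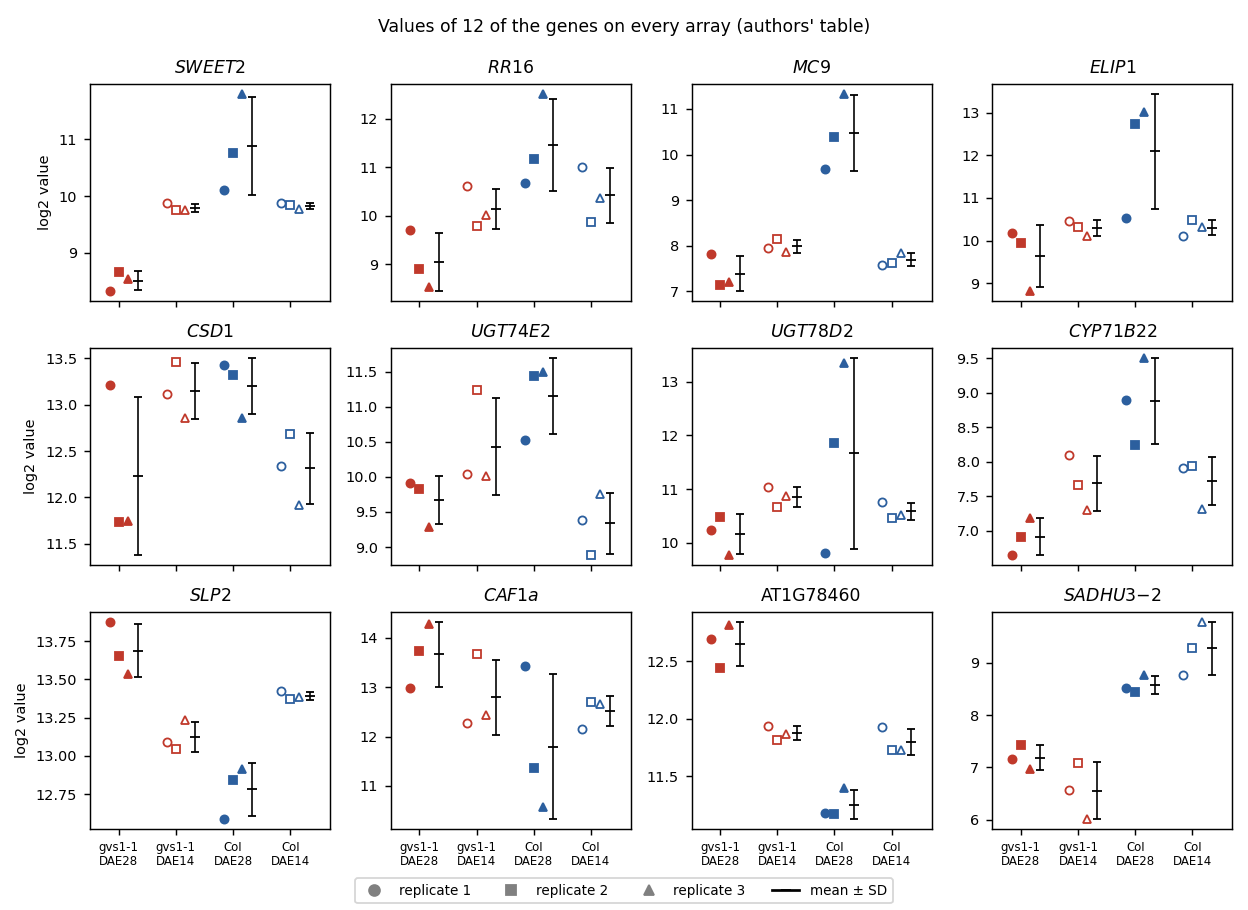
Log2 values of 12 of the genes on each of the 12 arrays, by group from gvs1-1 DAE28 on the left to Col DAE14 on the right, with filled symbols for DAE28, open symbols for DAE14, a symbol shape per replicate number, and the mean ± SD (n = 3) beside each group. The Col DAE28 arrays are the most spread group for SWEET2 (10.10 to 11.81), ELIP1 (10.53 to 13.00), UGT78D2 (9.81 to 13.34) and CAF1a (10.58 to 13.44), and AT1G78460 and SLP2 show tight groups.

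The set held 3 cytochrome P450 genes, members of a large family of oxygenases. CYP71B22 had values of 6.65, 6.90 and 7.18 in gvs1-1 leaves at DAE28, against 8.09, 7.66 and 7.30 at DAE14, and 8.89, 8.24 and 9.50 in Col leaves at DAE28, against 7.90, 7.94 and 7.31 at DAE14. The stages did not overlap in either genotype. Its age differences were -0.77 in gvs1-1 and 1.16 in Col, and -0.38 and 1.17 on scan day 1. CYP71B12 had -0.74 in gvs1-1 and 0.52 in Col, but -1.05 and -0.04 on scan day 1.

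CYP82G1 makes the homoterpene volatiles that leaves emit under attack, and it differed from most of the set. It read 6.34, 8.85 and 7.09 in gvs1-1 leaves at DAE28 and 6.90, 9.48 and 8.19 at DAE14. Col leaves read 7.25, 7.47 and 6.90 at DAE28 and 5.99, 6.59 and 6.34 at DAE14. The gvs1-1 stages overlapped widely, with replicate 2 the highest at both. It was the only one of the 31 genes whose mean at DAE28 was higher in gvs1-1 than in Col, by 0.22, and at DAE14 it was 1.88 higher in gvs1-1. Its age differences were -0.76 in gvs1-1 and 0.90 in Col, and -0.76 and 0.95 on scan day 1.

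Carbohydrate and lipid metabolism supplied several members. AMY2, an alpha-amylase, read 11.39, 11.23 and 10.76 in gvs1-1 leaves at DAE28, against 12.14, 11.91 and 12.27 at DAE14, and 11.96, 12.58 and 12.99 in Col leaves at DAE28, against 11.86, 11.95 and 12.01 at DAE14. The gvs1-1 stages were apart and the Col stages overlapped, with age differences of -0.98 in gvs1-1 and 0.57 in Col. On scan day 1 they were -1.15 in gvs1-1 and 0.02 in Col. MGDC, an enzyme of galactolipid synthesis, had -0.67 in gvs1-1 and 0.84 in Col, and -0.75 and -0.39 on scan day 1, where Col was lower with age too. CLO4, a caleosin of lipid droplets, had -0.58 in gvs1-1 and 0.82 in Col with no overlap between stages in either, and -0.44 and 0.22 on scan day 1.

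Cell wall genes were TBL41, of the trichome birefringence-like family whose members acetylate wall polysaccharides, the cellulose synthase-like gene CSLG3, and the glycosyltransferase gene GATL10. PGSIP7, also of a glycosyltransferase family, is given with them. TBL41 read 7.04, 7.08 and 6.70 in gvs1-1 leaves at DAE28, against 7.89, 7.39 and 7.20 at DAE14, and 8.22, 9.08 and 9.86 in Col leaves at DAE28, against 7.51, 7.35 and 7.28 at DAE14. As in SWEET2 and UMAMIT10, Col DAE28 lay above the shared DAE14 range and gvs1-1 DAE28 below it, with age differences of -0.56 in gvs1-1 and 1.67 in Col, and -0.27 and 0.84 on scan day 1. With scan day as a block the gvs1-1 value of TBL41 was 0.005. SWEET2 and TBL41 are neighbours on the RefSeq TAIR10.1 annotation, with 9 genes between them, and no other pair of members had fewer than 26.

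PGSIP7 had age differences of -0.78 in gvs1-1 and 1.12 in Col with no overlap in either genotype, and -0.55 and 0.76 on scan day 1. Its probes did not read alike in Col. In the scanner files one probe gave -0.83 in gvs1-1 and 2.60 in Col, and the other gave -1.96 and -0.63. CSLG3 had -0.87 in gvs1-1 and 0.72 in Col, but -1.10 and -0.26 on scan day 1. GATL10 had -0.54 in gvs1-1 and 0.51 in Col with overlap between the stages in both, and -0.35 and 1.18 on scan day 1.

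Nitrogen and sulphur metabolism was represented by NIT4, a nitrilase that acts in cyanide detoxification, and AOP2, a gene of glucosinolate side-chain modification. NIT4 had age differences of -0.64 in gvs1-1 and 0.85 in Col, and AOP2 had -0.63 and 0.57, with the stages overlapping in both genotypes for each. On scan day 1 NIT4 had -0.50 and 0.45, and AOP2 had -0.33 and 0.64. WDL1, of a family of microtubule-associated proteins, had -0.77 in gvs1-1 and 0.95 in Col with no overlap in either, and -0.56 and 0.42 on scan day 1.

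The set held 2 transcription factors of this direction, the zinc finger protein ZAT11 and the ethylene response factor family member ERF53, both near the floor. ZAT11 read 6.21, 6.74 and 6.76 in gvs1-1 leaves at DAE28, against 6.58, 9.59 and 7.97 at DAE14. Its Col arrays lay between 6.59 and 7.15 at DAE28, against 6.13 to 6.89 at DAE14. A single gvs1-1 DAE14 array, replicate 2, took it past the floor, and the stages overlapped in both genotypes. ZAT11 had age differences of -1.48 in gvs1-1 and 0.51 in Col, and -1.40 and 0.67 on scan day 1. ERF53 had age differences of -0.60 in gvs1-1 and 0.55 in Col, and -0.63 and 0.56 on scan day 1, also with overlap in both.

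The other 6 of the 31 genes carry only a locus name. AT1G03220 and AT2G31560 had no overlap in either genotype and kept their size on scan day 1. AT1G03220 had age differences of -0.71 in gvs1-1 and 1.18 in Col, and -0.78 and 1.19 on scan day 1. AT2G31560 had -0.76 and 1.17, and -0.66 and 1.05 on scan day 1. AT1G78230 had -0.59 in gvs1-1 and 0.63 in Col, AT2G21560 had -0.57 and 0.88, AT3G50900 had -0.50 and 0.98, and AT5G02090 had -0.53 and 0.53. On scan day 1 AT1G78230 had -0.88 in gvs1-1 and 0.40 in Col, AT2G21560 had -0.29 and 0.28, AT3G50900 had -0.32 and 1.03, and AT5G02090 had -0.46 and -0.07. AT5G02090 thus changed sign in Col there, and AT2G21560 was smaller in both genotypes.

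The 8 genes that were higher with age in gvs1-1 and lower in Col included regulators of mRNA, a protease and a chaperone. SLP2, a subtilisin-like serine protease, read 13.88, 13.66 and 13.53 in gvs1-1 leaves at DAE28, against 13.09, 13.05 and 13.23 at DAE14. Col leaves gave 12.58, 12.84 and 12.91 at DAE28, against 13.42, 13.37 and 13.39 at DAE14. Each of the 4 groups formed a tight cluster, with the order of genotypes turned round between the stages. The age differences of 0.57 in gvs1-1 and -0.61 in Col were 0.46 and -0.81 on scan day 1.

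AT1G78460 also formed tight groups. It read 12.69, 12.44 and 12.81 in gvs1-1 leaves at DAE28, against 11.94, 11.82 and 11.87 at DAE14, and 11.18, 11.18 and 11.40 in Col leaves at DAE28, against 11.93, 11.73 and 11.73 at DAE14. The DAE14 arrays of both genotypes shared one range, gvs1-1 DAE28 lay above it and Col DAE28 below it. Its age differences were 0.77 in gvs1-1 and -0.54 in Col, and 0.78 and -0.61 on scan day 1.

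AT5G44260 encodes TZF5, a tandem CCCH zinc finger protein, and CAF1a encodes a deadenylase subunit that shortens mRNA tails. AT5G44260 read 8.99, 8.49 and 8.68 in gvs1-1 leaves at DAE28, against 7.99, 8.24 and 7.82 at DAE14, and 7.84, 7.37 and 7.58 in Col leaves at DAE28, against 8.79, 8.42 and 8.21 at DAE14. The stages were apart in both genotypes, with age differences of 0.70 in gvs1-1 and -0.87 in Col, and 0.89 and -0.63 on scan day 1. CAF1a read 12.98, 13.73 and 14.29 in gvs1-1 leaves at DAE28, against 12.28, 13.66 and 12.44 at DAE14, and 13.44, 11.37 and 10.58 in Col leaves at DAE28, against 12.16, 12.71 and 12.67 at DAE14. Its stages overlapped in both genotypes, and replicate 1 of Col DAE28 was above all Col DAE14 arrays. The Col age difference of CAF1a was -0.72 over all arrays and 0.92 on scan day 1, while in gvs1-1 it was 0.87 and 1.23.

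SADHU3-2, a non-coding retrotransposon transcript, differed by genotype at both stages. It read 7.16, 7.44 and 6.97 in gvs1-1 leaves at DAE28, against 6.56, 7.09 and 6.01 at DAE14, and 8.51, 8.45 and 8.76 in Col leaves at DAE28, against 8.77, 9.28 and 9.78 at DAE14. All 6 gvs1-1 arrays lay below all 6 Col arrays, with a mean difference of -1.38 at DAE28 and of -2.72 at DAE14. It was the only member of the 8 with a lower mean in gvs1-1 than in Col at DAE28. Its age differences were 0.63 in gvs1-1 and -0.70 in Col, and 1.18 and -0.77 on scan day 1.

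HSC70-1, a cytosolic heat shock cognate protein, lay at the threshold in both genotypes. It read 12.89, 12.90 and 13.08 in gvs1-1 leaves at DAE28, against 12.41, 12.19 and 12.77 at DAE14, and 12.95, 12.01 and 12.08 in Col leaves at DAE28, against 12.92, 12.89 and 12.75 at DAE14. In Col replicate 1 at DAE28 read as high as the DAE14 arrays. The age differences of 0.50 in gvs1-1 and -0.51 in Col were 0.19 and 0.10 on scan day 1. Over the scanner files, 7 of its 8 probes had opposite signs in the 2 genotypes, but quantile normalization of its brightest probe gave 0.15 in Col in place of the table's -0.51.

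The last members of the 8 have no symbol. AT1G03020 read 10.38, 10.35 and 10.57 in gvs1-1 leaves at DAE28, against 10.01, 9.58 and 9.59 at DAE14, and 7.41, 7.93 and 10.12 in Col leaves at DAE28, against 9.89, 9.64 and 9.58 at DAE14. Its Col DAE28 replicate 3 lay apart from the other two, above the DAE14 arrays. AT1G03020 had age differences of 0.70 in gvs1-1 and -1.22 in Col, and 0.84 and -2.30 on scan day 1. AT3G19515 had 0.75 in gvs1-1 and -0.76 in Col with no overlap in either, but 0.27 and -0.10 on scan day 1.

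**Figure D3:**
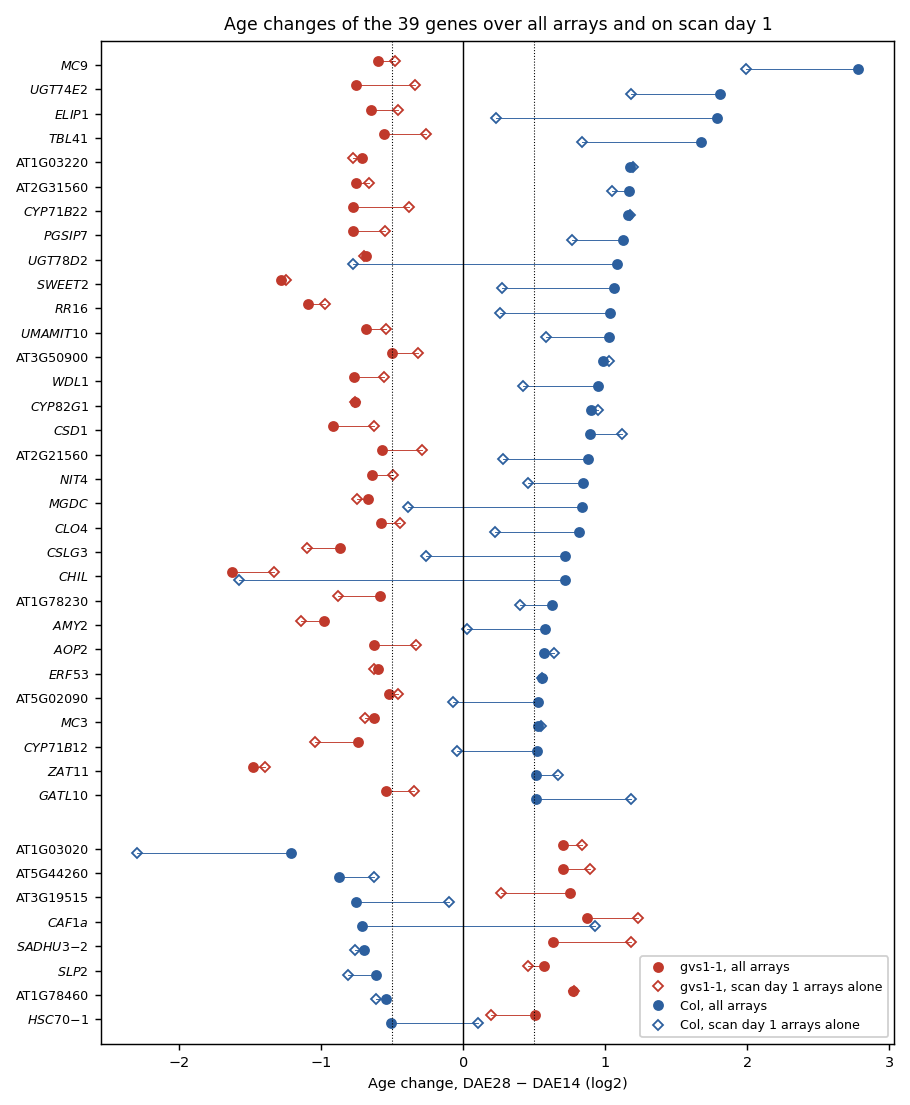
Age differences (DAE28 minus DAE14, log2) of the 39 genes in gvs1-1, in red, and in Col, in blue, over all arrays (filled circles) and on the arrays of scan day 1 alone (open diamonds), with the 31 genes lower in gvs1-1 and higher in Col above and the 8 with the reverse pattern below. All 39 gvs1-1 values keep their side of 0 on scan day 1, and 8 Col values cross it, those of UGT78D2, MGDC, CSLG3, CHIL, AT5G02090, CYP71B12, CAF1a and HSC70-1.

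On the arrays of scan day 1 alone, all 39 genes kept their direction in gvs1-1, and 31 kept it in Col. These arrays are among those that chose the genes, so the counts are a description only. Both age differences were still opposite and at least 0.5 in 13 genes, which were 9 of the 31 and 4 of the 8. The 9 were AT1G03220, AT2G31560, CSD1, CYP82G1, ERF53, MC3, PGSIP7, UMAMIT10 and ZAT11, and the 4 were AT1G03020, AT1G78460, AT5G44260 and SADHU3-2. When the floor of 8 was also applied to these arrays, 11 of the 39 members met the rule, and 0.19% of the loci that reached the floor there did.

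Averaged over the 31 genes, the mean log2 value per array was 8.78, 8.87 and 8.51 in gvs1-1 leaves at DAE28, against 9.44, 9.64 and 9.40 at DAE14. It was 9.63, 10.13 and 10.63 in Col leaves at DAE28, against 9.09, 9.17 and 9.20 at DAE14. No stage overlapped with the other in this mean in either genotype. The rule chose the genes by these age differences on the same arrays, so nothing is read from that. The Col DAE28 arrays were farther apart than those of the other groups. Replicate 3 of Col DAE28 was the highest array of its group in 23 of the 31 genes and replicate 1 the lowest in 20. The slide 2 arrays of Col DAE28 exceeded the slide 1 array by a median of 0.80 over the 31 genes and by -0.01 over all loci that reached the floor. The slide 2 arrays of gvs1-1 DAE14 exceeded the slide 3 array by a median of 0.18 over the 31 genes and by 0.01 over those loci. The part of slide and scan day in the age differences was not tested beyond these values. The mean of the 5 guard cell markers per array was 8.16 to 8.28 in gvs1-1 leaves at DAE28, against 8.45 to 8.60 at DAE14, and 8.44 to 8.89 in Col leaves at DAE28, against 8.28 to 8.53 at DAE14. This mean was thus lower with age in gvs1-1 and, with overlap, higher in Col. The 5 markers did not move alike. The guard cell potassium channel gene KAT1 averaged 9.69 in gvs1-1 leaves at DAE28 and 9.66 at DAE14, and 10.88 in Col leaves at DAE28 and 9.65 at DAE14. MYB60 and FAMA had lower means with age in both genotypes, and GORK had higher means in both. HT1 was lower with age in gvs1-1 and level in Col, at 7.92 at DAE28 and 7.93 at DAE14. The means of the mesophyll, phloem, xylem and epidermis markers were lower with age in both genotypes. The phloem marker APL alone was higher, at 8.45 against 8.36 in gvs1-1 and 8.90 against 8.60 in Col. The part of these cell types in the age differences was not tested.

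**Figure D4:**
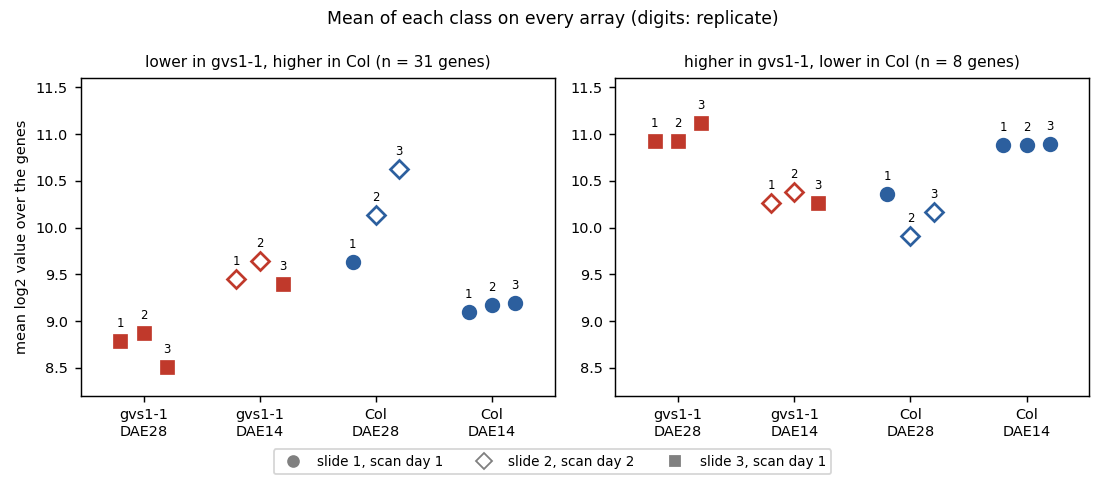
Mean log2 value over the 31 genes lower in gvs1-1 and higher in Col (left panel) and over the 8 genes with the reverse pattern (right panel) on each of the 12 arrays, by group, with red for gvs1-1, blue for Col, a symbol shape per slide, open symbols for scan day 2 and the replicate number above each symbol. In the left panel the gvs1-1 DAE28 arrays (8.51 to 8.87) lie lowest and the Col DAE28 arrays (9.63 to 10.63) highest, with the slide 1 array of Col DAE28 nearest to the DAE14 arrays. The choice of the genes favours this order.

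The genotypes differed most at the later stage. At DAE28 the difference of gvs1-1 minus Col had a median of -1.39 over the 31 genes, and 30 of them were lower in gvs1-1, 24 by at least 1. At DAE14 the median was 0.22. The largest differences at DAE28 were those of MC9 at -3.09, an 8.49-fold lower level in gvs1-1, ELIP1 at -2.45, RR16 at -2.41, SWEET2 at -2.38 and TBL41 at -2.12. CHIL is left out of this order, since its probe was not well above background on every DAE28 array. In 22 of the 31 genes all gvs1-1 arrays lay below all Col arrays at DAE28, against 20.2% of all loci. Among the 8 genes, all gvs1-1 arrays lay above all Col arrays at DAE28 in AT1G03020, AT5G44260, SLP2 and AT1G78460, against 22% of all loci. At DAE14 the genotypes did not overlap in 11 of the 39 genes, which is near the 28.9% of all loci. These were 8 of the 31 genes, with gvs1-1 higher in each, and 3 of the 8, with gvs1-1 lower in AT3G19515, SLP2 and SADHU3-2. The DAE28 difference minus the DAE14 difference is the contrast of the rule, so both are a description.

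In 27 of the 31 genes the Col DAE28 group had the highest mean of the 4 groups, and in 26 the gvs1-1 DAE28 group had the lowest. The exceptions at the top, with the highest mean in gvs1-1 DAE14, were CYP82G1, AOP2, ZAT11 and GATL10. In 34 of the 39 genes the genotype difference was larger in size at DAE28 than at DAE14. The rule itself favours these patterns and no share over all loci was taken, so nothing is read from the counts.

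The difference between the genotypes averaged over both stages was fitted with limma on the scanner files for the 36 members that have a matched probe, with Benjamini-Hochberg adjustment over all 19152 genes. The age differences of the rule do not enter this contrast, but the floor of 8 uses the group means. Of the 39 members, 9 reached 8 in Col only and 2 in gvs1-1 only, so their choice favoured a difference between the genotypes, and their averages are given without a test. The other 28 reached 8 in both genotypes. The Col DAE28 arrays, through which many of the 31 genes were chosen, also varied more than the others, so the p-values of these 28 are not free of the choice of genes. The labels do not say whether the samples of a group came from separate plants or sowings, so p-values measure only the spread between these samples, which may be technical.

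Of the 28 members, 27 have a matched probe, and 10 passed at an adjusted p under 0.05, 8 of them lower and 2 higher in gvs1-1. Over all genes tested 20.4% passed, 9.61% lower and 10.8% higher. Nothing about the members as a set is read from these counts.

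RR16 averaged 9.33 in gvs1-1 and 10.78 in Col, a difference of -1.45 ± 0.36 (SE, limma adjusted p = 0.0214), and 5 of the 6 gvs1-1 arrays lay below the Col mean of their stage. For SWEET2 the difference was -1.34 ± 0.24 (adjusted p = 0.00634, 5 of 6 arrays), with means of 10.14 in gvs1-1 and 11.47 in Col. AT2G31560 at -0.93, AT1G78230 at -0.84, AT5G02090 at -0.72, CYP71B12 at -0.71, AMY2 at -0.66 and MC3 at -0.58 were the other members that passed below Col, with adjusted p between 0.00531 and 0.0496, on 4 or 5 of the 6 arrays. These 8 averages rest mainly on DAE28, where gvs1-1 minus Col ran from -2.41 (RR16) to -1.15 (MC3) in the authors' values. At DAE14 it was -0.28 for RR16, -0.21 for AT1G78230, -0.18 for AT5G02090 and -0.08 for CYP71B12. It was -0.03 there for SWEET2, 0.005 for MC3, 0.17 for AMY2 and 0.18 for AT2G31560.

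The members that passed above Col were AT1G78460, by 0.72 ± 0.11 (adjusted p = 0.00373, 6 of 6 arrays), and SLP2, by 0.28 ± 0.08 (adjusted p = 0.0391, 3 of 6 arrays). SLP2 was higher in gvs1-1 at DAE28 and lower at DAE14. AT1G78460 was 1.40 higher in gvs1-1 at DAE28 and 0.08 higher at DAE14. Neither SLP2 nor AT5G02090 passed without the background filter or with replicate number as a block. Each also failed in most fits with a single array left out. CSD1 and UGT74E2, which were higher in gvs1-1 at DAE14 and lower at DAE28, had averages of 0.02 ± 0.26 and -0.20 ± 0.30 and did not pass.

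Among members that reached the floor in Col only, the average was -1.56 for MC9, with 7.63 in gvs1-1 and 9.19 in Col, -1.30 for CYP71B22, -1.29 for TBL41 and -1.20 for UMAMIT10. SADHU3-2 and WDL1, also of this kind, have no matched probe, and in a fit of the authors' deposited table SADHU3-2 differed by -2.05 and WDL1 by -0.64. AOP2 has no matched probe either, and differed by -0.01 ± 0.23 in the table (limma adjusted p = 0.987, where 19.8% of all loci passed, 9.31% lower and 10.5% higher in gvs1-1).

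With slide as a block, 149 of all genes and 3 members passed, namely AMY2, CYP71B12 and MGDC. Slide 1 held Col alone and slide 3 gvs1-1 alone, so the age differences of the rule enter that fit. Nothing is read from its calls. Scan day 1 alone leaves 1 gvs1-1 DAE14 array and 1 Col DAE28 array. Its genotype average is therefore not free of the age differences, and nothing is read from its calls. No slide held both genotypes at the same stage.

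**Figure D5:**
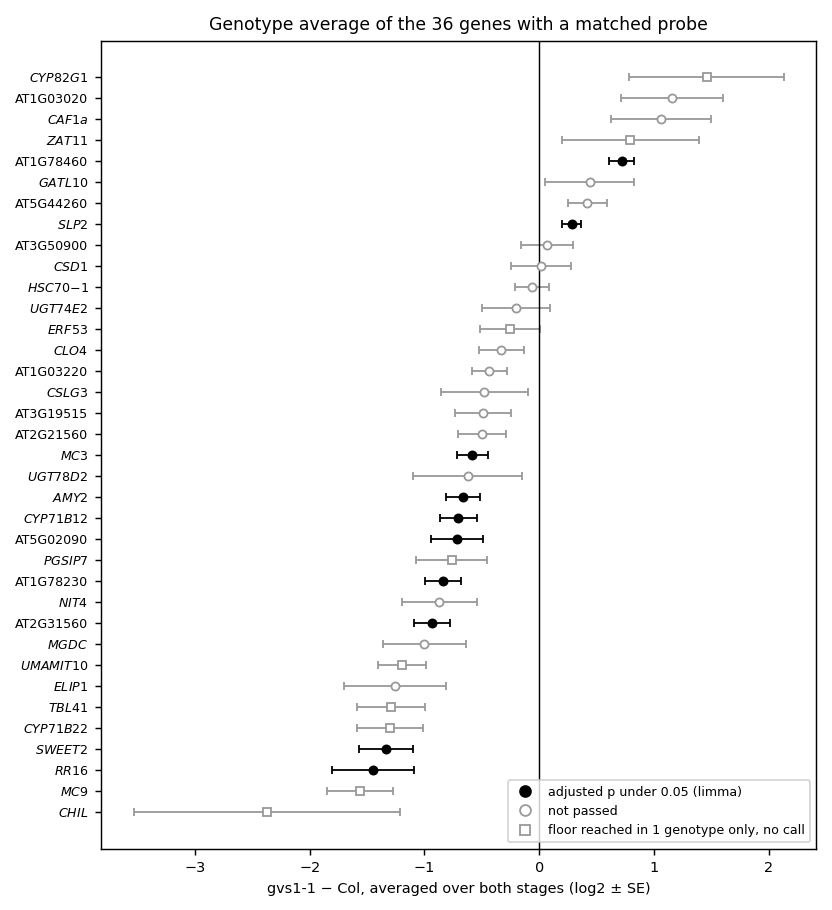
Difference of gvs1-1 minus Col averaged over both stages (log2, with its SE as bars) for the 36 members with a matched probe, as circles where the floor of 8 was reached in both genotypes, filled where the limma adjusted p was under 0.05, and as squares, with no call, where it was reached in 1 genotype only. The filled circles run from RR16 at -1.45 to AT1G78460 at 0.72.

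The gene families of some members were looked up for how their other genes differed with age, and these families were picked after the members were known. The other type-A response regulators were lower with age in both genotypes where measured above 8, unlike RR16. ARR7 had age differences of -2.25 in gvs1-1 and -3.17 in Col, ARR6 had -2.41 and -3.05, ARR9 had -1.70 and -2.81, and RR5 had -1.57 and -1.69. RR17, which lay below 8 in every group, had -0.27 and 0.79. CSD2, the chloroplast superoxide dismutase, was lower in both at -2.98 in gvs1-1 and -2.28 in Col, and CCS, the copper chaperone that loads these enzymes, had -1.51 and -0.30. CSD3 had -0.32 and -0.79. The close relative of ELIP1, ELIP2, had -0.58 and 0.47 at levels below 8.

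Among sugar transporters SWEET15, a senescence marker, was higher with age in both genotypes, by 6.14 in gvs1-1 and 8.27 in Col, while SWEET17 had -1.04 in gvs1-1 and -2.06 in Col. Metacaspases MC1 and MC4 had age differences of -0.05 and -0.12 in gvs1-1 and 0.30 and 0.37 in Col. MC2 had the reverse signs, 0.46 in gvs1-1 and -0.38 in Col, and MC8 was higher with age in both, by 0.64 in gvs1-1 and 0.87 in Col. The paralogue CAF1b was higher in both, by 1.91 in gvs1-1 and 1.65 in Col, unlike CAF1a, and TZF2 and TZF3 were higher in both as well, by 2.70 and 2.09 in gvs1-1 and 1.71 and 1.63 in Col. TZF1 was lower in both, at -0.76 in gvs1-1 and -1.90 in Col. NIT2, by 3.71 in gvs1-1 and 9.16 in Col, and AMY1, by 3.64 and 4.87, were higher with age in both genotypes, and AMY3 was lower in both, at -0.93 in gvs1-1 and -1.75 in Col.

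Anthocyanin and flavonoid genes, a list of 22 entries with 15 measured loci, held 1 member, UGT78D2. Of its other 14 loci, limma passed 6 as higher and 2 as lower with age in gvs1-1, and 8 as higher and 2 as lower in Col, at an adjusted p under 0.05. The age difference in gvs1-1 minus that in Col passed in 2 of the 14, both lower, against 8.75% of all genes lower and 9.91% higher. Over all genes 31.4% were higher and 30% lower in gvs1-1, and 35.7% higher and 36.3% lower in Col. The anthocyanin enzymes DFR and LDOX had age differences of 1.16 and 0.85 in gvs1-1 and of 4.66 and 4.24 in Col, and chalcone synthase, TT4, had -3.46 in gvs1-1 and 0.04 in Col. Of 155 other cytochrome P450 loci, 135 were tested, and 45 were higher and 40 lower in gvs1-1, and 53 higher and 48 lower in Col. The 35 other ethylene response factors counted 13 higher and 3 lower in gvs1-1 and 14 higher and 8 lower in Col. No member was on the lists for the circadian clock, jasmonate, salicylic acid, abscisic acid, photosystems, senescence-associated genes or WRKY and NAC factors. The members are 0.183% of all loci, so lists this short would rarely hold one, and nothing is read from their absence.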

How the data were processed

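Per the labels, total RNA was amplified with a one-colour Agilent kit and hybridised to 1 array per sample. Per the file headers, the scanner files come from Feature Extraction 11.5.1.1 (11.5 per the submitters' processing notes) and hold spot intensities, of which the authors' background-corrected processed signal was used here, with outlier and background marks. The authors deposited a table of log2 values for 21266 loci, whose scaling and combination of probes are not given in the sources used here. For the 13416 loci with 1 probe, its correlation across genes with the log2 median signal was 0.995 or more for each of the 12 arrays. Member values, age differences and overlaps come from this table.

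For the genotype average the processed signal was scaled to a common 75th percentile and log2-transformed. Probes with an outlier mark (166) were left out. Probes had to be marked well above background throughout 1 group or more, and the brightest probe stood for its locus, which gave 26801 probes and 19152 genes. RefSeq accessions matched 34348 of 43603 probes. Differences were tested in 1 fit of 4 group means (limma 3.58.1, R 4.3.3, two-sided, Benjamini-Hochberg adjustment, threshold 0.05). The script was tested on simulated data. Alternatives covered single arrays left out, scaling, background correction (normexp on the median signal, offset 50), probe choice, filters, thresholds, slide, scan day and replicate number.

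The members, families and lists were chosen with earlier results of these data known. Within each direction the named genes were the first 15 with a symbol by the smaller age difference, list members, those that passed the genotype average, and those beside the threshold. The text names the remaining members too.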

Additional observations from a re-analysis of the deposited data

Results flagged for a closer look

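In 16 genes every gvs1-1 array at DAE28 lay on one side of all gvs1-1 arrays at DAE14, and every Col array at DAE28 lay on the opposite side of all Col arrays at DAE14. The difference itself was not tested, and the choice of the genes fixes its direction. The age difference in gvs1-1 minus that in Col was -3.38 for MC9, -2.57 for UGT74E2, -2.35 for SWEET2, -2.23 for TBL41, -1.93 for CYP71B22, -1.93 for AT2G31560, -1.90 for PGSIP7, -1.89 for AT1G03220, -1.72 for WDL1, -1.71 for UMAMIT10, -1.39 for CLO4 and -1.21 for AT1G78230. It was 1.57 for AT5G44260, 1.51 for AT3G19515, 1.32 for AT1G78460 and 1.18 for SLP2.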

How the results depend on the processing

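The number of arrays, 3 per group, and the uneven slides limit these results, and the probe of CHIL was well above background on 1 of 3 gvs1-1 DAE28 arrays. Of all loci, 39 met the rule in the authors' table, 67 after median centring of the scanner values, 59 after quantile normalization, 2 at a threshold of 1 and 2091 when only opposite signs were asked for. Leaving out single arrays gave 30 to 69 loci, with 69 without Col DAE28 replicate 1 and 65 without gvs1-1 DAE14 replicate 3. Of the 39 members, 2 met the rule at a threshold of 1, 13 with slide as a block, 11 within slides, 17 with scan day as a block and 11 on scan day 1 alone.

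The genotype average passed in 3901 genes and 14 members. Of these members, 4 reached the floor of 8 in Col only, and their passing is not read as a result. It passed in 149 genes and 3 members with slide as a block, 1720 and 7 on scan day 1 alone, and 6401 and 22 with array weights. Leaving out single arrays gave 2431 (without Col DAE14 replicate 2) to 4333 genes and 12 to 20 members, with 2479 genes without Col DAE14 replicate 3. The average is not free of the age differences of the rule with slide as a block or on scan day 1 alone. The same holds with an array left out or arrays weighted. Nothing is read from these member counts. A replicate block gave 3229 genes and 13 members. Deviations of samples of one number had correlations of -0.27 to 0.51 over 18 pairs, 4 of them over 0.1. At DAE14, gvs1-1 and Col deviated together in replicate 1 (0.51) and replicate 2 (0.38), but not in replicate 3 (-0.10). The numbers were not taken as pairs in the main fit.

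Signs turned in the following cases, and the cause was not tested. The genotype average of SLP2 was -0.0498 with slide as a block. On scan day 1, which compares within slides, the Col age difference was -0.39 for MGDC, 0.92 for CAF1a, -0.26 for CSLG3 and -0.0702 for AT5G02090. It was 0.10 for HSC70-1, -1.58 for CHIL, -0.78 for UGT78D2 and -0.0417 for CYP71B12. With scan day as a block the gvs1-1 value was 0.005 for TBL41, 0.22 for ELIP1 and 0.23 for UGT78D2, and the Col value of CHIL was -0.58. The Col value of CHIL was -0.18 in the scanner files with the brightest probe and with the mean of probes, -0.0068 after median centring and -0.0103 after quantile normalization, and leaving out single arrays gave -0.50 without Col DAE28 replicate 3 to 1.86 without Col DAE28 replicate 1. HSC70-1 had 0.15 in Col after quantile normalization and 0.25 after normexp, and -0.003 in gvs1-1 in the scanner files.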
